A study of Mus musculus with 14 samples.

Results

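The 10 genes described here carry iron into cells, store it, reduce or oxidise it, and let it out again. They were taken by symbol from the table of normalised read counts, and all 10 were found among its 18355 genes. Those named for uptake were Trf (transferrin), Tfrc (the transferrin receptor), Steap3 (an endosomal iron reductase) and Slc11a2 (the divalent metal transporter DMT1). Those for storage were Fth1 and Ftl1 (the heavy and light ferritin chains). Those for export were Slc40a1 (ferroportin), Heph (hephaestin) and Cp (ceruloplasmin). Ireb2 encodes the RNA-binding protein IRP2, which sets the expression of several of the others. In build mm39 the deposited table places Trf on chromosome 9 from 103086075 to 103107486 (minus strand), Tfrc on chromosome 16 from 32427714 to 32451613 (plus) and Steap3 on chromosome 1 from 120154144 to 120198811 (minus). Slc11a2 lies on chromosome 15 from 100285781 to 100320937 (minus), Fth1 on chromosome 19 from 9957964 to 9962476 (plus) and Ftl1 on chromosome 7 from 45107368 to 45109311 (minus). Slc40a1 lies on chromosome 1 from 45947230 to 45964755 (minus), Heph on chromosome X from 95499042 to 95618091 (plus), Cp on chromosome 3 from 20011218 to 20063915 (plus) and Ireb2 on chromosome 9 from 54771039 to 54819819 (plus).

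The 14 libraries came from sorted cells of mouse brains at postnatal day 8, with 900 ng of total RNA going into each. Brains were dissociated with papain, and cells were held on magnetic beads against CD140a, the protein of Pdgfra, to obtain oligodendrocyte precursor cells (OPCs), or against the O4 antigen, to obtain immature oligodendrocytes. Mice named 2afl/fl carried a floxed Mfsd2a allele without Cre and gave 3 libraries per sort. Mice named 2aOKO carried the same floxed allele with a Cre driven by Pdgfra, which deletes Mfsd2a in OPCs, and gave 4 libraries per sort. The driver is active wherever Pdgfra is expressed, which includes fibroblasts of the meninges as well as OPCs. Mice with unfloxed alleles or with Cre alone were not among the groups. The comparisons ask how the iron genes differ between the sorts in each genotype, and between the genotypes in each sort.

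Oligodendrocytes hold more iron than most brain cells, and enzymes of lipid and cholesterol synthesis that serve myelination need it. Transferrin binds iron outside the cell and enters with its receptor, iron is released and reduced in the endosome and crosses its membrane through DMT1, ferritin stores what is not used, and ferroportin exports the rest with a ferroxidase such as ceruloplasmin or hephaestin. When iron is scarce, the iron regulatory proteins IRP1 and IRP2 bind a hairpin in the mRNA, the iron-responsive element. Binding in the 5′ untranslated region blocks translation of ferritin and ferroportin, and binding in the 3′ untranslated region protects the mRNA of the transferrin receptor from decay.

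Sequences of these hairpins are shown because Tfrc carries them behind the coding part and both ferritins and Slc40a1 before it. An isoform of Slc11a2 is also known to carry a 3′ element, which these letters do not match, so a gene without a match may still hold one. The search was for an unpaired C, then 5 bases, a loop of CAGTGN or CAGAGN, and 5 bases pairing with the first 5, where G may pair with T, flanked by 5 bases on each side of which at least 4 pair. Only the coding strand of transcripts was searched. In GENCODE vM21 transcripts of build GRCm38, 51 of 21877 coding genes (0.233%) held such a site, among them 4 of the 10. Each site is 27 bases, written 5′ to 3′ with the unpaired C and the loop in capitals and with positions counted from the start of the transcript. Tfrc, on chromosome 16, had 5 sites, all in the 3′ untranslated region of Tfrc-201, which has 4890 bases and a coding part that ends at base 2429. Fth1 (chromosome 19, Fth1-201), Ftl1 (chromosome 7, Ftl1-201) and Slc40a1 (chromosome 1, Slc40a1-201) had 1 each, before the coding part.
Tfrc, bases 3257 to 3283: tttatCagtgaCAGAGTtcactataaa
Tfrc, bases 3316 to 3342: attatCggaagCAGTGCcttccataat
Tfrc, bases 3695 to 3721: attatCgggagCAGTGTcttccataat
Tfrc, bases 3760 to 3786: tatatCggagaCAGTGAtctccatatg
Tfrc, bases 3807 to 3833: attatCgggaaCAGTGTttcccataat
Fth1, bases 88 to 114: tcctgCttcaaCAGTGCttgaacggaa
Ftl1, bases 79 to 105: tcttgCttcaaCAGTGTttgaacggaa
Slc40a1, bases 91 to 117: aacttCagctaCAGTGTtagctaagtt
The ferritin sites shared 25 of 27 bases. The other 6 genes had no match to these letters in any coding transcript, which says nothing about other forms of the element.

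The libraries held normalised totals of 34120800 to 41030200, from an estimated 32894200 to 44112200 counted reads. O4 library 2 of 2afl/fl stood apart from the other O4 libraries, with the lowest sum of 16 oligodendrocyte markers (435069, against 708162 to 1650840 in the other 6). The libraries numbered 3 had the lowest endothelial sums of their groups. Between the sorts of 2afl/fl and 2aOKO, respectively, 15 and 15 of the 16 oligodendrocyte markers were higher in O4 (0 and 1 lower), and so were 10 and 11 of 12 microglial and 5 and 7 of 8 border macrophage markers. Of 12 OPC markers 6 and 7 were lower (1 and 1 higher), of 8 fibroblast markers all 8, and of 12 neuron markers 4 and 5 (2 and 1 higher). Of 10 astrocyte markers 5 were higher and 1 lower in both genotypes. In the fit without a replicate block, none of 10 endothelial, 7 choroid plexus and 6 erythroid markers passed, while 1 of 7 pericyte markers was lower. Among all genes tested 14.3% and 17.6% passed higher and 12.2% and 15.5% lower. Counts of 1 or 2 in a list thus stood near or under the background. No OPC, microglial, endothelial, pericyte, astrocyte, fibroblast, choroid plexus or neuron marker was at 0 in any library. Pdgfra was still at 140948 ± 39368 (SD, n = 3) in the 2afl/fl O4 libraries, against 270936 ± 37767 (SD, n = 3) in OPCs. In such bulk samples more cells of a type and more RNA per cell cannot be told apart. Mfsd2a was at 7585, 7979 and 16343 in 2afl/fl OPCs and at 7055, 7188, 3665 and 6843 in 2aOKO OPCs. In O4 cells it was at 6762, 7777 and 12885 against 7101, 6536, 3615 and 6596. In OPCs and O4 cells the libraries numbered 3 held the highest control and the lowest 2aOKO value, and a count over the gene as a whole cannot tell if reads came from exons that Cre removes.

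**Figure D1:**
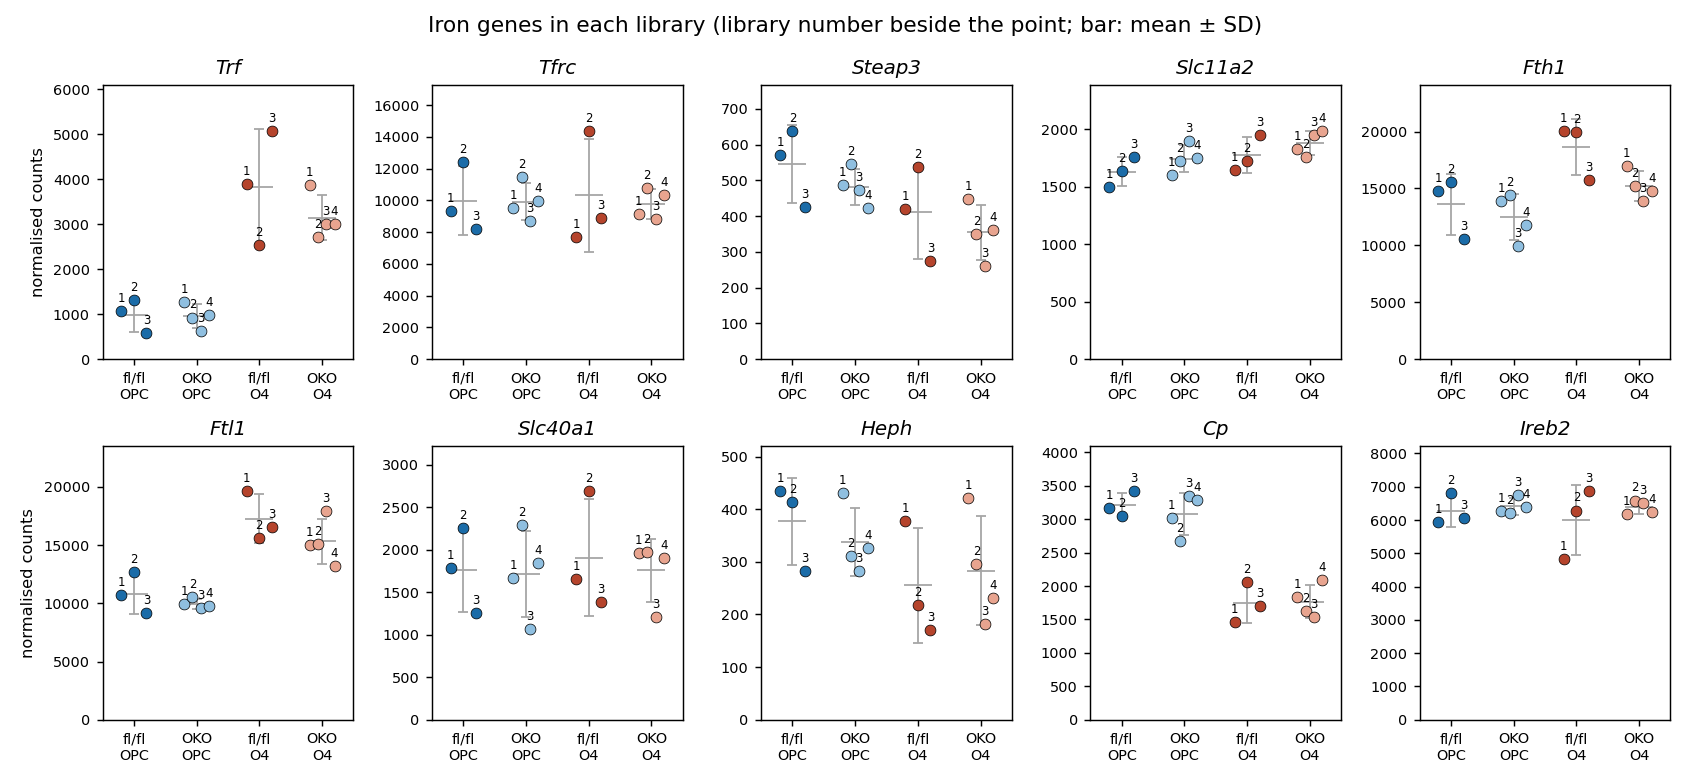
Normalised counts (y axis, from 0) of the 10 iron genes in each library, by sort and genotype (x axis; OPC in blue, O4 in red, 2aOKO in the lighter shade), with the library number beside each point and the mean ± SD of each group as a grey bar (n = 3 for 2afl/fl and 4 for 2aOKO). Trf and Ftl1 lay higher and Cp lower in all 7 O4 libraries than in any of the 7 OPC libraries, while Tfrc, Slc40a1 and Ireb2 overlapped throughout.

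The ferritin chains were the most abundant of the 10 mRNAs. Levels of different genes were compared as normalised counts per kilobase, with the length of 1 transcript linked to RefSeq for each gene. In 2afl/fl OPCs Fth1 came first at 14642 ± 2894 (SD, n = 3) and Ftl1 next at 11202 ± 1802, and the ranges of these neighbours overlapped. Tfrc followed at 2040 ± 445 per kilobase and Ireb2 at 1086 ± 80.6, each apart from its neighbours in the order. Cp was at 797 ± 46.0, Slc11a2 at 538 ± 42.4, Slc40a1 at 524 ± 148 and Trf at 384 ± 147 per kilobase, where the last 3 overlapped from one to the next. Steap3 (106 ± 21.1) and Heph (79.4 ± 17.4) came last and overlapped. The order in 2aOKO OPCs was the same.

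In O4 cells Trf moved from the eighth to the fourth place and Cp from the fifth to the eighth, in both genotypes. Trf was at 1492 ± 494 per kilobase (SD, n = 3) in 2afl/fl O4 cells, where it overlapped with Tfrc (2112 ± 731) above it and Ireb2 (1038 ± 182) below it. In 2aOKO O4 cells Trf was at 1224 ± 193 (SD, n = 4) and apart from Tfrc, at 2000 ± 193. With the longest RefSeq transcript of each gene, the only places that changed were those of Slc11a2, Slc40a1 and Trf among each other. Both ferritin genes have near-identical processed copies in the genome, so reads may have been split between them, and their levels are uncertain for that reason.

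Trf, the iron carrier that oligodendrocytes make themselves, rose most. The 2afl/fl OPC libraries were at 1078, 1311 and 571 and the O4 libraries at 3890, 2540 and 5080. Every O4 library lay above every OPC library, and O4 library 2 was the lowest of its group. The mean was 3.89 times higher, with a log2 fold change of 1.99 ± 0.30 (SE) and an adjusted p of 0.000498 by limma. The 2aOKO OPC libraries were at 1272, 924, 627 and 989 and the O4 libraries at 3860, 2707, 3003 and 3013. These groups did not overlap either, and Trf rose by 1.75 ± 0.26 on the log2 scale (adjusted p = 0.000228). In both OPC groups library 3 was the lowest. The sum of the 16 oligodendrocyte markers ran from 31011 to 38287 in the OPC libraries and from 435069 to 1650840 in O4, and that of the 12 microglial markers from 3303 to 5384 and from 8036 to 13343. Within the 2afl/fl O4 libraries Trf and the oligodendrocyte sum had the same order, 2, 1 and 3, and in the 2aOKO O4 libraries library 3 had the highest sum (1306940) but not the highest Trf. The part of these markers in the result was not tested.

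The light ferritin chain Ftl1 rose as well. It went from 10678, 12664 and 9187 in 2afl/fl OPCs to 19622, 15622 and 16519 in O4 cells, with no overlap. The log2 fold change was 0.68 ± 0.12 (adjusted p = 0.00191 by limma). The 2aOKO libraries went from 9946, 10562, 9630 and 9750 to 15041, 15130, 17949 and 13245. All 4 O4 libraries were again above all OPC libraries, with a log2 fold change of 0.61 ± 0.11 (adjusted p = 0.000735). The sums of the oligodendrocyte and microglial markers and that of 8 border macrophage markers (276 to 367 in the OPC and 1238 to 1658 in the O4 libraries) were likewise apart between the sorts. Their part in the ferritin values was not tested.

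The heavy chain Fth1, which carries the ferroxidase centre of ferritin, differed less. It was at 14752, 15524 and 10529 in 2afl/fl OPCs and at 20085, 20000 and 15780 in O4 cells. The groups just did not overlap, since O4 library 3 lay close above OPC library 2. Fth1 rose by 0.46 ± 0.16 on the log2 scale (adjusted p = 0.0424 by limma). That call was lost when 1 of 7 libraries was left out, namely 2afl/fl OPC 1 (0.53, adjusted p = 0.0516) or 3 (0.29, 0.194), 2afl/fl O4 1 (0.41, 0.137) or 2 (0.41, 0.0808), 2aOKO OPC 4 (0.46, 0.0548) and 2aOKO O4 2 (0.46, 0.0553) or 4 (0.46, 0.0527). It was also lost when each library was rescaled to the same total (0.35, adjusted p = 0.168). The 2aOKO OPC libraries were at 13868, 14418, 9958 and 11786 and the O4 libraries at 16985, 15204, 13914 and 14753. These overlapped, O4 library 3 being below the highest OPC library, and the log2 fold change of 0.29 ± 0.14 did not pass (adjusted p = 0.116). With the replicate number as a block it did (adjusted p = 0.00553, and 0.00843 with genotype and number as the block).

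The 2 chains build 1 shell, and their ratio within a library does not depend on the scaling between libraries. Counts of Fth1 over those of Ftl1 averaged 1.251 ± 0.120 (SD, n = 3) in 2afl/fl OPCs and 1.251 ± 0.166 (n = 4) in 2aOKO OPCs. In O4 cells the ratio was 1.09 ± 0.17 (n = 3) and 1.01 ± 0.16 (n = 4). The ranges of the sorts overlapped, at 1.15 to 1.38 against 0.955 to 1.28 in 2afl/fl and at 1.03 to 1.39 against 0.775 to 1.13 in 2aOKO mice. Set against the OPC library of the same number, the ratio was lower in O4 cells in every pair except 2afl/fl number 2 (1.23 in OPCs and 1.28 in O4 cells). Counts of Tfrc over those of Fth1 were at 0.736 ± 0.0898 in 2afl/fl OPCs and 0.555 ± 0.168 in O4 cells. In 2aOKO mice they were at 0.801 ± 0.0835 and 0.646 ± 0.0791, and the ranges overlapped in both genotypes. Between libraries of the same number this ratio was lower in O4 cells than in OPCs in every pair of both genotypes. No test was run on the ratios.

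Cp, the copper ferroxidase that loads exported iron onto transferrin, fell. It went from 3170, 3052 and 3415 in 2afl/fl OPCs to 1464, 2061 and 1706 in O4 cells. No library of either sort reached the other, and Cp fell by 0.89 ± 0.13 on the log2 scale (adjusted p = 0.000378 by limma). The 2aOKO libraries went from 3011, 2667, 3344 and 3284 to 1831, 1625, 1530 and 2086, again without overlap. There it fell by 0.80 ± 0.11 (adjusted p = 0.000153). The sum of 8 fibroblast markers ran from 45957 to 73497 in the OPC libraries and from 20107 to 37193 in O4, and that of 10 astrocyte markers from 42519 to 48542 and from 45011 to 62826. The sum of 12 neuron markers was 23055 to 27622 in the OPC libraries and 14426 to 21463 in O4, again without overlap. In the 2afl/fl libraries Dcx made up most of that sum, so it does not stand for the whole list. Of the neuron markers 4 and 5 were lower and 2 and 1 higher in O4 cells of 2afl/fl and 2aOKO mice. The sum of 12 OPC markers was apart as well, at 959440 to 1207670 in the OPC libraries and 690746 to 928716 in O4. Sums of the oligodendrocyte, microglial and border macrophage markers were apart in the other direction. The part of these markers in the fall of Cp was not tested.

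The other ferroxidase, Heph, was the least abundant of the 10 per length in all 4 groups. It was at 434, 414 and 282 in 2afl/fl OPCs and at 378, 217 and 171 in O4 cells, where O4 library 1 lay within the OPC range. The log2 fold change of -0.62 ± 0.31 did not pass (adjusted p = 0.162 by limma). With the replicate number as a block the same value passed (adjusted p = 0.0133, and 0.0197 with genotype and number as the block). In 2aOKO mice Heph was at 431, 311, 283 and 327 in OPCs and at 422, 297, 182 and 231 in O4 cells. Its log2 fold change was -0.31 ± 0.27 (adjusted p = 0.421). In each of the 4 groups library 1 was the highest and library 3 the lowest.

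Slc40a1, the only known exporter of iron ions from mammalian cells, had no difference between the sorts beyond its spread. It was at 1788, 2254 and 1256 in 2afl/fl OPCs and at 1655, 2689 and 1383 in O4 cells. The 2aOKO values were 1666, 2294, 1072 and 1842 in OPCs and 1958, 1979, 1207 and 1901 in O4 cells. In every group library 2 was the highest and library 3 the lowest. The log2 fold changes were 0.09 (95% confidence interval -0.53 to 0.72) and 0.06 (-0.49 to 0.60), with adjusted p of 0.849 and 0.888 by limma. The upper bounds are rises to 1.65 and 1.52 times the OPC level.

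Tfrc, the receptor through which transferrin enters, did not differ beyond its spread either. It was at 9347, 12400 and 8183 in 2afl/fl OPCs and at 7707, 14402 and 8871 in O4 cells. The 2aOKO values were 9499, 11480, 8700 and 9987 in OPCs and 9160, 10797, 8815 and 10353 in O4 cells. Library 2 was the highest in all 4 groups. The log2 fold changes were 0.02 (95% confidence interval -0.40 to 0.43) and -0.02 (-0.38 to 0.34), with adjusted p of 0.958 and 0.950. Neither Tfrc, with its elements behind the coding part, nor Slc40a1, with its element before it, had a call between the sorts in either genotype. What the elements do in these cells was not tested.

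Steap3, which reduces the iron released from transferrin so that DMT1 can carry it, was lower in the O4 means. It was at 571, 639 and 426 in 2afl/fl OPCs and at 420, 537 and 276 in O4 cells, with overlap. Its log2 fold change was -0.44 ± 0.23 (adjusted p = 0.182), with an adjusted p of 0.0452 with genotype and number as the block. Without O4 library 2 of 2afl/fl the value was -0.66 (adjusted p = 0.0370). In 2aOKO mice Steap3 was at 486, 546, 473 and 424 in OPCs and at 447, 349, 260 and 360 in O4 cells. There the log2 fold change was -0.46 ± 0.20 (adjusted p = 0.0924). It passed with the replicate number as a block (adjusted p = 0.0203, and 0.0166 with genotype and number), and also without the 2afl/fl O4 library 3 (0.0448).

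The transporter Slc11a2 and the regulator Ireb2 had the smallest standard errors of the 10. Slc11a2 ran from 1498 to 1755 in 2afl/fl OPCs and from 1648 to 1949 in O4 cells, and from 1603 to 1892 and 1760 to 1987 in 2aOKO mice. Its log2 fold changes were 0.12 ± 0.09 and 0.11 ± 0.08 (adjusted p = 0.347 and 0.30). Ireb2 ran from 5939 to 6800 in 2afl/fl OPCs and from 4825 to 6862 in O4 cells, O4 library 1 being the lowest. In 2aOKO mice it ran from 6208 to 6761 and from 6190 to 6587. Its log2 fold changes were -0.08 ± 0.10 and -0.01 ± 0.09 (adjusted p = 0.623 and 0.969).

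Of the 10 genes, 3 rose (Trf, Ftl1, Fth1) and 1 fell (Cp) in O4 cells of 2afl/fl mice, by limma over 15565 genes. Among all genes tested 26.5% passed, 14.3% higher and 12.2% lower, so the members' count did not stand far from the background. Their median log2 fold change was 0.06, against -0.01 over all genes. In 2aOKO mice 2 rose (Trf, Ftl1) and 1 fell (Cp), where 33.1% of all genes passed, 17.6% higher and 15.5% lower. The median was 0.03 against -0.02. With the replicate number as a block, or with genotype and number, 5 of the 10 passed in 2aOKO mice, Fth1 and Steap3 being added. In 2afl/fl mice 5 passed with the number as the block, Heph being added, and 6 with genotype and number, Heph and Steap3 being added. Rescaling each library to the same total moved the median of all genes by -0.11 in 2afl/fl and -0.12 in 2aOKO mice and turned the split of calls over all genes from 2223 higher and 1905 lower to 1574 and 2972 in 2afl/fl, and from 2738 and 2407 to 1886 and 3707 in 2aOKO mice. Groups did not overlap for 4 of the 10 genes in 2afl/fl and 3 in 2aOKO mice, against 34.1% and 40.5% of all genes. The sort effect was not shown to differ between the genotypes for any member: the difference ran from -0.23 (Trf, 95% confidence interval -1.09 to 0.63) to 0.31 (Heph, -0.57 to 1.19) on the log2 scale, with an adjusted p of 0.9999 for all 10.

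**Figure D2:**
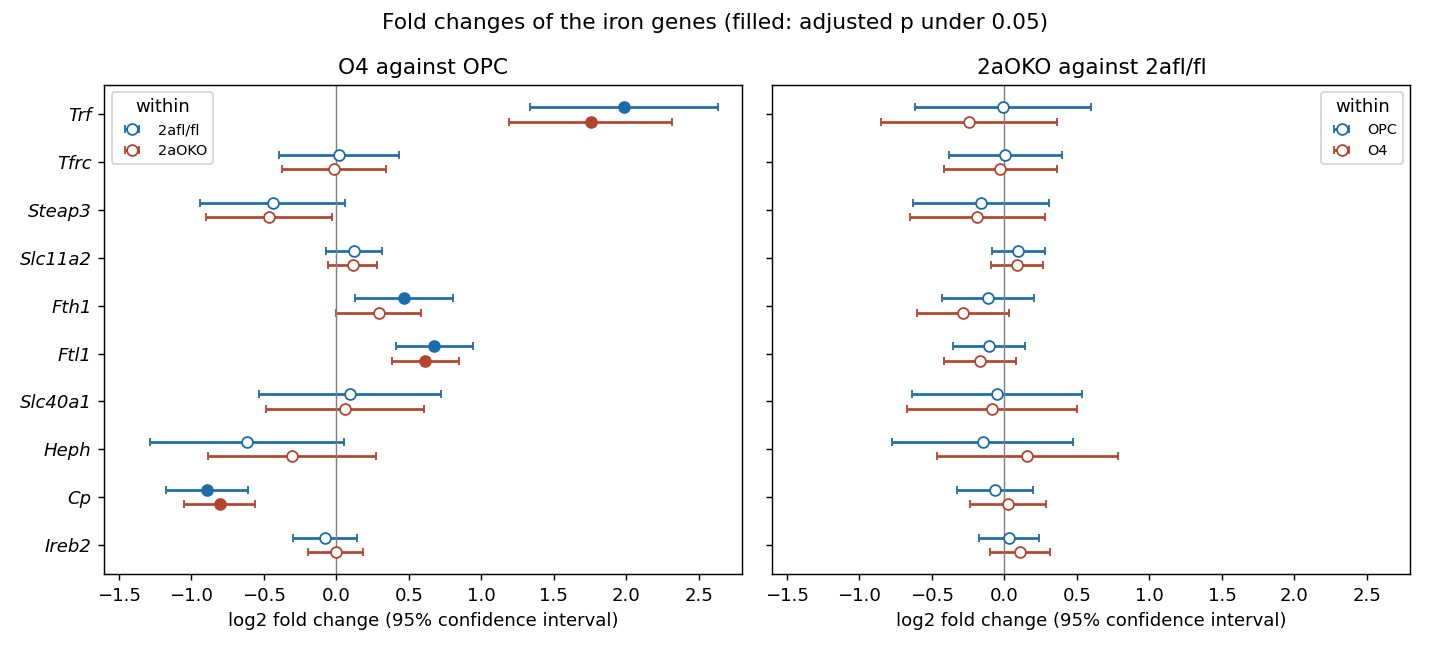
Log2 fold changes of the 10 iron genes with 95% confidence intervals, O4 against OPC in each genotype (left) and 2aOKO against 2afl/fl in each sort (right), where filled points have an adjusted p under 0.05 by limma. Trf at 1.99 and 1.75 lies farthest from 0 on the left, and all intervals on the right include 0.

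Genes that act on the 10 were taken from 2 further lists. The regulators Aco1, which encodes IRP1, and Fbxl5, which marks IRP2 for decay when iron is plentiful, stayed near 0. Aco1 had log2 fold changes of 0.05 ± 0.07 and 0.04 ± 0.06 between the sorts in 2afl/fl and 2aOKO mice, and Fbxl5 of 0.03 ± 0.07 and -0.02 ± 0.06 (all adjusted p of 0.636 or more). The haem oxygenase gene Hmox1 was at -0.01 ± 0.13 and -0.04 ± 0.11. Ncoa4, the receptor that delivers ferritin to lysosomes, was at 9178, 8388 and 9009 in 2afl/fl OPCs and at 9424, 9307 and 11366 in O4 cells. Its log2 fold change of 0.17 ± 0.08 did not pass (adjusted p = 0.120), although the groups did not overlap. In 2aOKO mice it rose by 0.28 ± 0.07 (adjusted p = 0.00590).

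Of 34 other iron genes, 30 were in the table and 26 were tested. In 2afl/fl mice 5 were higher and 4 lower in O4 cells, against 14.3% and 12.2% of all genes, with a median log2 fold change of 0.17 against -0.01 over all genes. In 2aOKO mice 9 were higher and 3 lower, against 17.6% and 15.5%, with a median of 0.11 against -0.02. With each library rescaled to the same total the counts were 3 higher and 4 lower in 2afl/fl and 6 and 5 in 2aOKO mice. With only the groups compared in the fit they were 1 and 1 in 2afl/fl and 9 and 4 in 2aOKO mice, and without the 4 libraries numbered 3 they were 4 and 1, and 6 and 2. App, the amyloid precursor protein that binds ferroportin at the cell surface, rose by 0.66 ± 0.11 and 0.69 ± 0.09. Among the poly(C)-binding proteins, of which PCBP1 and PCBP2 are known as iron chaperones that load ferritin, Pcbp4 rose by 0.71 ± 0.15 and 0.70 ± 0.13 and Pcbp1 by 0.37 ± 0.09 and 0.38 ± 0.08. Pcbp3 went the other way, at -0.43 ± 0.09 and -0.38 ± 0.08, and Pcbp2 passed only in 2aOKO mice (0.21 ± 0.07) in the fit without a block. Bmp6, a growth factor that induces hepcidin in the liver, fell by 1.12 ± 0.26 and 1.12 ± 0.22, from 1028 to 472 and from 989 to 463. App and Bmp6 passed in both genotypes under all 24 other settings run.

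Calls of the other named genes of that list were less stable. The ferric reductase Cybrd1 rose by 0.94 ± 0.28 and the coreceptor Neo1 by 0.44 ± 0.16 in 2afl/fl mice, and the zinc and iron transporter Slc39a14 and the ferritin receptor Scara5 were lower, at -0.31 ± 0.09 and -1.35 ± 0.42. Over 24 other settings and left-out libraries Cybrd1 passed in 19, Neo1 in 9, Slc39a14 in 18 and Scara5 in 17. In 2aOKO mice Slc39a14 was at -0.22 ± 0.08 and passed in 11 of the 24, Neo1 rose by 0.54 ± 0.14 and passed in all 24, and the low gene Meltf, at means of 8.33 and 23.5, rose by 1.54 ± 0.49 and passed in 18 of the 23 in which it was tested. With the 4 libraries numbered 3 left out the list had 4 higher and 1 lower in 2afl/fl and 6 higher and 2 lower in 2aOKO mice.

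Of 45 genes of mitochondrial iron, iron-sulphur clusters and haem, 44 were tested. Between the sorts of 2afl/fl mice 10 were higher and 0 lower, with a median of 0.13, and in 2aOKO mice 10 were higher and 1 lower, with a median of 0.08. These counts of 10 among 44 stand beside 14.3% and 17.6% of all genes called higher. With each library rescaled to the same total, 9 were higher and 2 lower in 2afl/fl and 7 higher and 2 lower in 2aOKO mice. Among genes of haem synthesis that rose in both genotypes were Cpox, the coproporphyrinogen oxidase, by 1.95 ± 0.24 and 1.96 ± 0.21, and Alad, the porphobilinogen synthase, by 1.254 ± 0.17 and 1.15 ± 0.14. The mean of Cpox went from 1128 to 4655 and from 1111 to 4389, a rise of 4.13 and 3.95 times. Fech, which inserts the iron into haem, was at 0.02 ± 0.09 and 0.06 ± 0.07 (chosen for its role after its values were seen).

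Other genes of the list that rose in both genotypes encode proteins of iron-sulphur clusters and of haem transport. Cisd3, a protein with 2 iron-sulphur clusters in mitochondria, rose by 1.27 ± 0.25 and 1.75 ± 0.21, and its relative Cisd1 by 0.65 ± 0.15 and 0.66 ± 0.13. Nubp2, of the cytosolic cluster assembly, rose by 0.67 ± 0.14 and 0.52 ± 0.12, and the mitochondrial chaperone Hspa9 by 0.37 ± 0.09 and 0.45 ± 0.08. Slc48a1, a haem transporter of lysosomes, rose by 0.43 ± 0.09 and 0.27 ± 0.08, and Abcb10 by 0.36 ± 0.10 and 0.31 ± 0.09. Cpox, Alad and Cisd3 passed in both genotypes under all 24 other settings. As for the members, the part of the oligodendrocyte and macrophage markers in these values was not tested. Without the 4 libraries numbered 3 the count was 6 higher and 0 lower in 2afl/fl and 8 and 0 in 2aOKO mice, and with only the 6 libraries compared it was 3 and 0 in 2afl/fl mice.

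**Figure D3:**
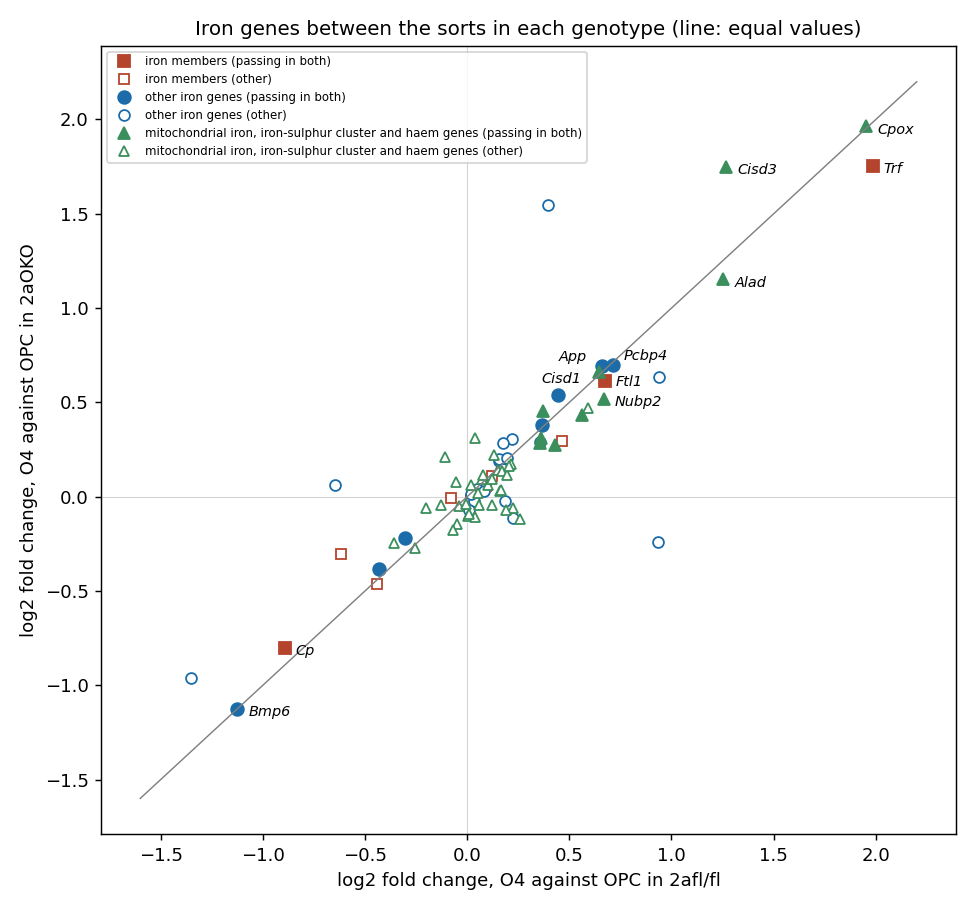
Log2 fold change of O4 against OPC in 2afl/fl (x axis) and in 2aOKO mice (y axis) for each tested iron gene, with the 10 members as squares, 26 other iron genes as circles and 44 genes of mitochondrial iron, iron-sulphur clusters and haem as triangles; filled symbols passed in both genotypes. Cpox (1.95 and 1.96) and Trf (1.99 and 1.75) lie at the upper right and Bmp6 (-1.12 and -1.12) and Cp (-0.89 and -0.80) at the lower left.

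Between the genotypes, no iron gene passed the test. By limma 0 of the 10 genes passed in OPCs and 0 in O4 cells, where 0 of all 15565 genes (0%) did in either sort. At an unadjusted p under 0.05 there were also 0 of the 10, against 251 (1.61%) and 450 (2.89%) of all genes. In OPCs the log2 fold changes ran from -0.16 (Steap3, 95% confidence interval -0.63 to 0.30) to 0.10 (Slc11a2, -0.08 to 0.28). In O4 cells they ran from -0.29 (Fth1, -0.60 to 0.03) to 0.16 (Heph, -0.47 to 0.78). For none of the 10 did the libraries of the genotypes stand apart, against 4.75% of all genes in OPCs and 2.67% in O4 cells.

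Fth1 in O4 cells came closest, at 20085, 20000 and 15780 in 2afl/fl against 16985, 15204, 13914 and 14753 in 2aOKO mice. Both highest libraries were controls, and the third control lay within the range of 2aOKO (unadjusted p = 0.0731, adjusted p = 0.999). Set against the control library of the same number, Fth1 was lower in 2aOKO in all 3 pairs of each sort, and Slc11a2 was higher in all 3 pairs of each. The other 8 genes had pairs of both signs over the 6. The pairs of both sorts share their numbers and are not independent. The pair numbered 2 in O4 cells is uncertain, since that control library resembled a 2aOKO library of another number more (r of 0.386 against 0.121). Blocked by number, neither Fth1 nor Slc11a2 passed in either sort (adjusted p = 0.843 and 0.907 in O4 cells). Trf in O4 cells had a mean of 3837 ± 1271 (SD, n = 3) in 2afl/fl and of 3146 ± 497 (n = 4) in 2aOKO mice. Its log2 fold change of -0.24 had an interval of -0.85 to 0.36, which includes both no change and a fall to 0.555 of the control level. In OPCs the Trf means were 987 ± 378 and 953 ± 265. The intervals were narrowest for Slc11a2 and Ireb2, at -0.09 to 0.27 and -0.10 to 0.31 in O4 cells.

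The other lists had no call between the genotypes either. Of the 26 other iron genes and the 44 of mitochondria and haem, 0 passed in each sort. At an unadjusted p under 0.05 there were 1 and 1 in OPCs and 0 and 2 in O4 cells. These, named after their values were seen, were Meltf (-1.13 ± 0.53) and Hscb (-0.48 ± 0.19) in OPCs and Slc25a37 (0.17 ± 0.07) and Hmox2 (-0.21 ± 0.08) in O4 cells, with an adjusted p of 0.999 or more. The libraries of Slc25a37 stood apart between the genotypes in both sorts and those of Hmox2 in O4 cells. Aco1, Fbxl5 and Ncoa4 lay between -0.04 and 0.07 on the log2 scale and Hmox1 was at -0.12 in OPCs and -0.15 in O4 cells.

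Several of the 10 genes varied from library to library together with markers of vessels. Once the group means were taken off, Slc40a1 had a Pearson r of 0.94 with the sum of 10 endothelial markers and of 0.88 with that of 7 pericyte markers over the 14 libraries. For the endothelial sum r was 0.87 with Fth1, 0.86 with Steap3, 0.69 with Tfrc and -0.75 with Slc11a2. With the sum of erythroid markers r was 0.86 for Fth1, 0.78 for Slc40a1, 0.77 for Steap3, 0.71 for Tfrc and -0.67 for Slc11a2. Sums of lineage markers went with some of these genes about as closely. With the OPC sum r was -0.79 for Fth1 and 0.76 for Slc11a2. With the oligodendrocyte sum it was -0.75 for Tfrc, -0.74 for Steap3 and -0.68 for Slc40a1. These are descriptions over libraries that are not independent, since those with the same number resembled each other across sorts. The endothelial sum was 24390, 23094, 25574 and 21948 in the 4 libraries numbered 3, the lowest of each group, and 47716 in the 2afl/fl O4 library 2, the highest of all. Slc40a1 was also lowest in each group in the libraries numbered 3, and highest of all in that O4 library. Between the sorts neither the endothelial markers nor Slc40a1 and Tfrc passed in the fit without a block. With either replicate block 1 of the 10 endothelial markers passed as higher in O4 cells of 2afl/fl mice, while Slc40a1 and Tfrc still did not pass.

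Heph went with the sum of 7 choroid plexus markers, with r of 0.77 after the group means were taken off. Its r with the OPC sum was as far from 0, at -0.79. The choroid plexus sum was highest in the libraries numbered 1, at 210748 to 324309, where Heph was highest too. Cp had an r of 0.82 with the astrocyte sum and of 0.82 with the neuron sum. Over all 14 libraries r was -0.49 with the astrocyte sum and 0.94 with the neuron sum. For Trf, r with the oligodendrocyte sum was 0.93 over all 14 libraries, where both differ between the sorts, and 0.38 after the group means were taken off. With the choroid plexus sum the latter was 0.39, and with the astrocyte sum -0.56. The part of these cells in the values of the iron genes was not tested.

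**Figure D4:**
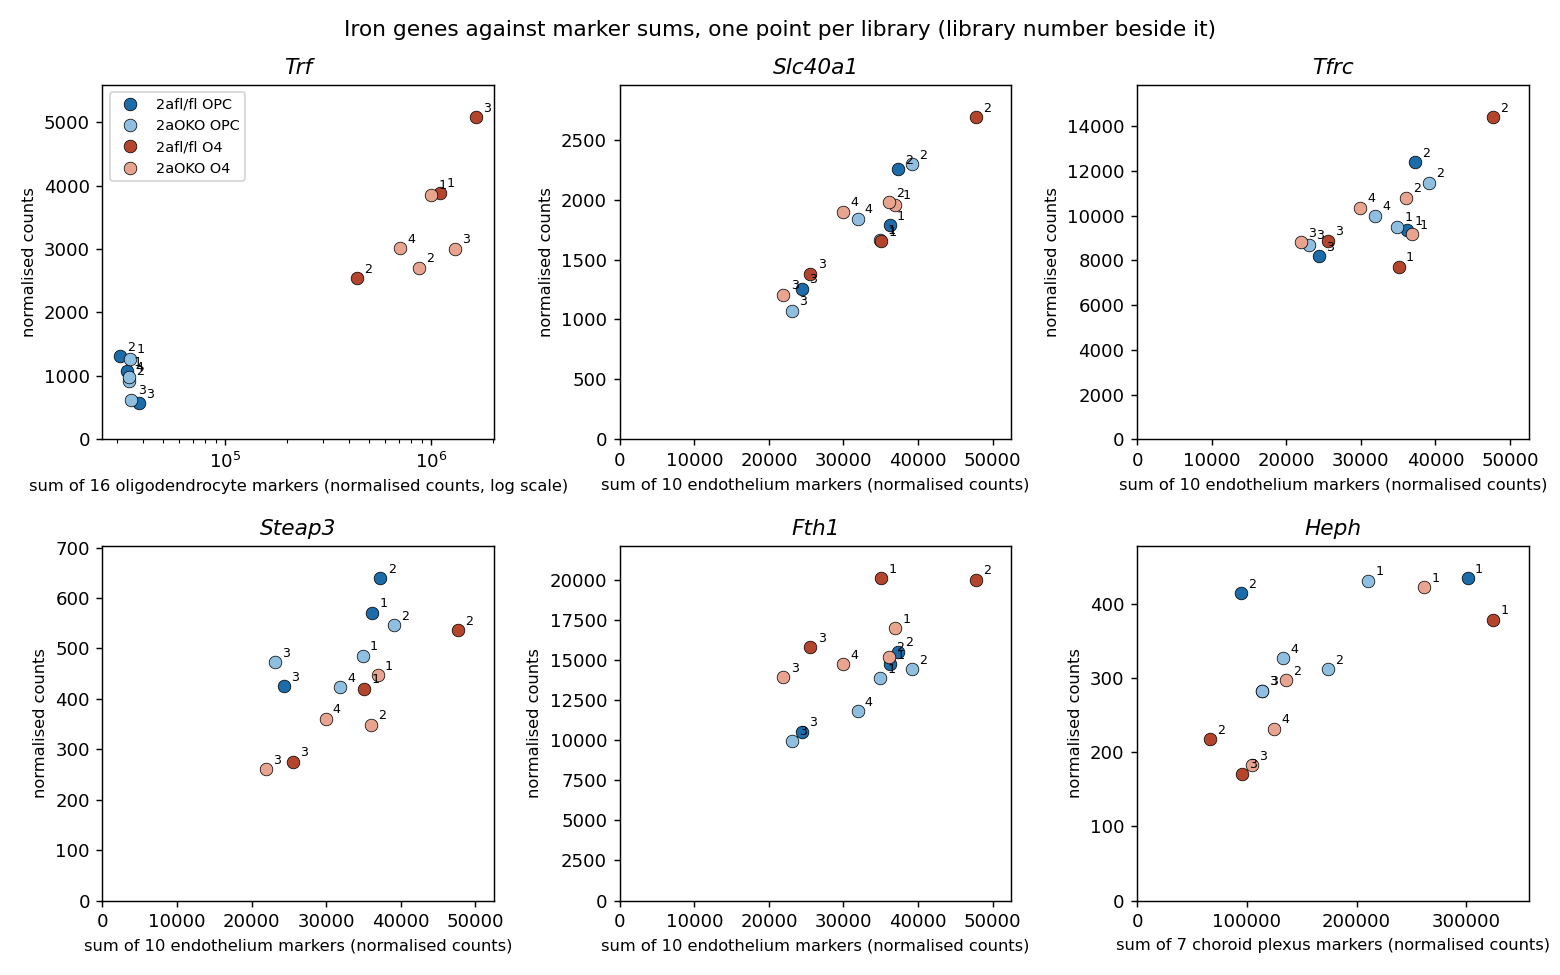
Normalised counts of 6 iron genes (y axes) against the summed normalised counts of marker genes (x axes, on a log scale for the oligodendrocyte markers of the Trf panel), 1 point per library with its number. Slc40a1 and the endothelial sum are both lowest in the libraries numbered 3 and highest in 2afl/fl O4 library 2, and Trf separates the sorts as the oligodendrocyte sum does.

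The members also varied with each other after the group means were taken off, again as a description over the same 14 libraries. Tfrc and Slc40a1 (r = 0.82), Fth1 and Slc40a1 (0.81), Slc40a1 and Steap3 (0.77) and Fth1 and Steap3 (0.75) went together. Ftl1 and Cp (-0.81), Slc11a2 and Heph (-0.79) and Fth1 and Slc11a2 (-0.79) went in opposite directions.

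The genes most like 4 of the members, by Pearson r of log2 values over the 14 libraries with group means taken off, were sought among 13697 genes with a mean of at least 50. For Slc40a1 they were Flvcr2, Slc39a8 and Shc1 (r = 0.98 for each). Flvcr2 and Slc39a8 are themselves on the iron lists, as a relative of a haem exporter and a carrier of zinc and iron. For Tfrc they were Parp14 (0.95), Zfp366 and Ngly1 (0.94 each), for Heph Lepr and Rhpn2 (0.96 each) and Fads3 (0.94), and for Trf Csrp1 (0.88), C920006O11Rik (0.86) and Ttyh2 (0.85).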

How the data were processed

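The authors deposited a table of 18355 genes in 14 libraries. Per the submitters' processing notes and the study's methods, reads were aligned to mm39 with STAR 2.7.8a in Partek Flow 10 and counted per gene, and the deposited values are a signal: gene counts divided by DESeq2 median-ratio size factors, scaled neither to gene length nor to the library total. How reads fitting several genes were shared is not given in the sources used here. Of values under 20, 93.2 to 94.9% were whole reads within 0.05, so they were not treated as counts. Estimated reads ran from 32894200 to 44112200 per library. The deposited tables of the authors' own comparisons hold fold changes, p-values and false discovery rates and were not used.

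Values were tested as log2(value + 1) with limma 3.58.1 in R 4.3.3, with 4 group means over 14 libraries, an intensity trend, 2-sided tests and Benjamini-Hochberg adjustment over 15565 genes with a mean of at least 10. The other 2790 were not tested. Fold changes on this scale understate the change of low genes. The 5 comparisons were O4 against OPC in each genotype, 2aOKO against 2afl/fl in each sort, and the difference of the latter. A gene passed at an adjusted p under 0.05. Log2 fold changes are given ± standard error. The script was tested on simulated data.

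Groups came from the labelled cell type and genotype. The study gives its n as animals per genotype, but the labels do not say which animal each library came from, so p-values measure the spread between these libraries. The numbers in the sample titles were taken as pairs, since libraries of the same number deviated together (r of 0.326 to 0.480 between sorts, 0.169 to 0.384 between genotypes in OPCs and 0.121 to 0.493 in O4 cells). The exception was 2afl/fl O4 library 2. Its r was 0.121 with 2aOKO O4 library 2 but 0.386 with a 2aOKO O4 library of another number, so that pair is uncertain. A block by number, or by genotype and number, was an alternative, as were other pseudocounts, filters and fits, rescaling to equal totals, and leaving out libraries. The 10 genes and all lists of iron and marker genes were chosen with earlier results of these data known. All 10 members were named. From each iron list up to 8 genes per comparison with the smallest p among those passing were named, with Aco1, Fbxl5, Ncoa4 and Hmox1 in any case, and from each marker list the 2 with the highest mean. Meltf, Fech and, in 1 genotype each, Neo1, Slc39a14, Slc48a1 and Abcb10 were added after their values were seen. Hamp, Timd2, Hephl1 and Ftmt were not analysed here. Some genes that the rule names are not reported here.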

Additional observations from a re-analysis of the deposited data

Results flagged for a closer look

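In the 2aOKO O4 libraries, library 3 lay far below the other libraries for Slc40a1, at 1207 normalised counts against 1958, 1979 and 1901. Its gap to the nearest value was 0.898 of the range of the group, above the critical value of Dixon's test at the 95% level. It was the only such case among the 20 groups of 4 values examined, where chance gives about 1 in 20. The same library had the lowest endothelial marker sum, 21948. Whether that sum has a part in the value was not tested.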

How the results depend on the processing

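Trf, Ftl1 and Cp passed with the same sign in both genotypes under every setting run. In 2afl/fl mice the log2 fold change of Trf ran from 1.402 to 2.50 and in 2aOKO mice from 1.57 to 1.91. Fth1 in 2afl/fl mice ran from 0.29 to 0.58 with 1 library left out (adjusted p from 0.0301 to 0.194 by limma), and missed the threshold with only the groups compared (adjusted p = 0.133), with rescaling (0.168) and without the libraries numbered 2 (0.0656). In 2aOKO mice 5 members passed with either replicate block and with only the groups compared, against 3, and these 3 were shared. Apart from Heph and Steap3 in 2afl/fl mice, the block changed no other call of a member. Members passing with 1 library left out ran from 3 to 4 in both genotypes.

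Over all genes, 848 passed in 2afl/fl mice with only the groups compared, against 4128, with 847 shared. Leaving out the 4 libraries numbered 3 or the 4 numbered 2 was chosen after seeing the data. Without those numbered 3, 1272 genes passed in 2afl/fl and 3334 in 2aOKO mice. With 1 library left out, counts ran from 2473 (without 2afl/fl O4 library 1) to 5880 (without O4 library 2) in 2afl/fl mice, with 2716 without O4 library 3, and from 3821 to 5762 in 2aOKO mice. Between the genotypes in O4 cells they ran from 0 to 4, the 4 arising without 2afl/fl O4 library 3. The cause of these shifts was not tested, beyond the fewer libraries in each fit.

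The values that changed sign had all missed the threshold. Rescaling to the same total took Tfrc to -0.095 and Slc40a1 to -0.019 between the sorts of 2afl/fl mice and Slc40a1 to -0.057 and Slc11a2 to -0.0040 between the sorts of 2aOKO mice. The replicate block by number took Tfrc to -0.011 between the genotypes in OPCs and Cp to -0.035 between the genotypes in O4 cells. Leaving out the libraries numbered 2 took Tfrc to -0.081 between the sorts of 2afl/fl mice, Tfrc to 0.0062 between the sorts of 2aOKO mice, Trf to 0.24 between the genotypes in OPCs, Tfrc to 0.19, Slc40a1 to 0.12 and Steap3 to 0.030 between the genotypes in O4 cells and Tfrc to 0.087, Slc40a1 to 0.14 and Steap3 to 0.13 for the difference between these effects. Leaving out those numbered 3 took Tfrc to -0.031 between the sorts of 2afl/fl mice, Ireb2 to 0.011 between the sorts of 2aOKO mice, Tfrc to -0.065 and Ireb2 to -0.014 between the genotypes in OPCs, Trf to 0.0065 between the genotypes in O4 cells and Trf to 0.18, Tfrc to 0.0016, Slc11a2 to 0.027 and Steap3 to 0.014 for the difference between these effects. The log2 fold changes below crossed 0 when 1 library was left out, with the lowest and highest value for each. Between the sorts of 2afl/fl mice these were Tfrc (-0.25 to 0.20), Slc40a1 (-0.18 to 0.30) and Ireb2 (-0.18 to 0.070). Between the sorts of 2aOKO mice these were Tfrc (-0.078 to 0.055), Slc40a1 (-0.15 to 0.23) and Ireb2 (-0.021 to 0.020). Between the genotypes in OPCs these were Trf (-0.36 to 0.24), Tfrc (-0.13 to 0.17), Ftl1 (-0.22 to 0.0089), Slc40a1 (-0.28 to 0.16), Cp (-0.11 to 0.00021) and Ireb2 (-0.0037 to 0.094). Between the genotypes in O4 cells these were Tfrc (-0.21 to 0.24), Slc40a1 (-0.29 to 0.19), Heph (-0.089 to 0.48), Cp (-0.096 to 0.15), Ireb2 (-0.042 to 0.21) and Steap3 (-0.45 to 0.031). For the difference between these effects these were Trf (-0.50 to 0.12), Tfrc (-0.22 to 0.23), Fth1 (-0.29 to 0.0035), Ftl1 (-0.18 to 0.052), Slc40a1 (-0.24 to 0.24), Slc11a2 (-0.065 to 0.059), Cp (-0.029 to 0.22), Ireb2 (-0.076 to 0.18) and Steap3 (-0.29 to 0.19). The cause was not tested.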

Other observations

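The cells that the bulk sorts can hold beside the labelled type are shown by 1 or 2 of the most abundant markers of each list, as mean normalised counts in 2afl/fl OPC and O4 libraries (n = 3 each, a description of levels with no test here). For OPCs, Pdgfra was at 270936 and 140948. Gpr17, also on the OPC list used here, was at 129785 and 242798. The study itself names Gpr17 among markers of immature oligodendrocytes, so its level does not stand for OPCs alone. For oligodendrocytes, Mbp was at 2480 and 366506. For microglia, Csf1r was at 742 and 2133. For border macrophages, Mrc1 was at 158 and 810 and F13a1 was at 46.1 and 215. These markers were thus present in both sorts. For endothelium, Cldn5 was at 6430 and 7372 and Kdr was at 5680 and 6097. For pericytes, Rgs5 was at 15364 and 16356 and Vtn was at 5380 and 2794. For astrocytes, Slc1a2 was at 17284 and 15329 and Slc1a3 was at 15279 and 13217. Of the 10 astrocyte markers 5 passed as higher in O4 and 1 as lower, with a median log2 fold change of 0.91. The 2 shown thus do not stand for their list. Vessel and astrocyte markers were present in both sorts too. For fibroblasts, Col1a2 was at 10710 and 4597 and Igf2 was at 29679 and 14139. For choroid plexus, Ttr was at 160305 and 153906 and Clic6 was at 2950 and 2496. For erythroid cells, Hba-a1 was at 2514 and 3372 and Hba-a2 was at 2481 and 3308. The choroid plexus marker Ttr was the most abundant of those for cells outside the lineage. For neurons, Snap25 was at 2240 and 1550 and Dcx was at 17365 and 12816.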
